A study of Mus musculus with 2 samples.

Results

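The proteasome genes were read out in ribosome-bound RNA of Drd2-expressing cells of the mouse medial prefrontal cortex. Members were all probe sets whose platform annotation names a single gene with a proteasome symbol (Psma, Psmb, Psmc, Psmd, Psme, Psmf or Psmg followed by a number and at most 1 letter). This gave 50 of the 34472 probe sets, standing for 47 of the 22180 named genes. The symbols include, beside the subunits proper, the activators, the inhibitor and the assembly chaperones that carry the same names. Of the 49 genes written down for these classes, Psma4 and Psme2b have no probe set of their own here, so Psma4, a subunit of the outer core ring, was not analysed. In all, 4 probe sets that name a proteasome gene together with another gene were left out.

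The mice, of the strain D2Cre::RiboTag, were adult. RiboTag is an allele that puts a haemagglutinin tag on a ribosomal protein in cells with Cre activity, here driven by D2Cre, and the tag lets their ribosomes be precipitated together with the bound messengers. The data comprise 1 group of 2 arrays, which the labels call technical replicates, made from pooled cortices of 5 animals; that both share the same pool is an assumption. No second condition, input RNA or mock precipitation was analysed here, so the data hold levels and their repeatability, not enrichment or change. The spread between the arrays is technical and says nothing about the variation between animals, and no p-value can be given.

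The proteasome is the protease that degrades proteins tagged with ubiquitin in the cytosol and nucleus. Its core particle is a barrel of outer alpha rings and inner beta rings, in which the subunits beta1, beta2 and beta5 carry the proteolytic sites. Interferon signalling induces replacements for these sites, encoded by Psmb9, Psmb10 and Psmb8, which form the immunoproteasome known from immune cells. The regulatory particle binds ubiquitin chains, removes them and unfolds the substrate with a ring of ATPases. In neurons, proteasomes are known to act in synaptic protein turnover and plasticity.

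Signals are given in log2 units, as judged from their range, and a pair of values for a gene gives replicate 1 and then replicate 2. Olfactory and vomeronasal receptor genes, 1373 in number, served as a stand-in for genes without expression. Background on each array was the 95th percentile of their signals, 5.61 on replicate 1 and 5.64 on replicate 2, and a gene had to exceed it on both (with the mean of its probe sets) to be called. By this rule 60.6% of all named genes were called. All named genes include the receptor genes that set the threshold, and without them the share was 64.4%. Calls were repeated with 3 other thresholds. These were the median of all probe sets (5.80 and 5.81), the 99th percentile of the same receptor genes, named here the stricter receptor threshold (6.64 and 6.66), and the 95th percentile of 31 genes of testis, liver and skeletal muscle, named the out-of-tissue threshold (7.28 and 7.10). Of the out-of-tissue genes, 2 of 9 of testis, 2 of 12 of liver and 6 of 10 of muscle were above background. A call between background and the out-of-tissue threshold is thus not proof of expression. Since affinity varies from probe set to probe set, signals of different genes are given side by side but not ranked against each other. In this bulk RNA, fewer cells of a type and less RNA per cell cannot be told apart.

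Markers of the labelled cells and of other cells were read first, and without input RNA they do not show enrichment. Drd2, the dopamine D2 receptor gene, stood at 10.78 and 10.70, and all 12 neuron markers were called, at a median of 11.86. Markers of other cell types were above background too, with 10 of 10 astrocyte, 8 of 8 oligodendrocyte and 9 of 9 microglia genes. Their medians were 7.87, 8.38 and 6.82. The out-of-tissue threshold was passed by 7 of the astrocyte, 6 of the oligodendrocyte and 3 of the microglia genes. The shares over all named genes were 60.6% at background and 38.0% at the out-of-tissue threshold. By the markers over the out-of-tissue threshold, the RNA was not free of transcripts that mark cells other than neurons. For microglia the median lay under that threshold. The part of such cells in the proteasome signals was not tested.

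Of the 47 proteasome genes, 43 (91.5%) were above background, against 60.6% of all named genes and 64.4% of those other than the receptor genes. Their median signal was 9.37, against 6.36 over all named genes and 7.90 over the named genes above background. Over the named genes other than the receptor genes the median was 6.57. The 4 genes not above background were Psma5, an alpha ring subunit, Psmb9, an immunoproteasome subunit, and the tissue-restricted Psmb11 and Psma8. The median of all probe sets was exceeded by 43 proteasome genes and 57.5% of all named genes, and the stricter receptor threshold by 40 proteasome genes and 44.8% of all named genes. At the out-of-tissue threshold 38 proteasome genes were called, and 38.0% of all named genes. The genes that lost their call there were Psmb3, Psmb8, Psmg2, Psmg3 and Psmg4.

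**Figure D1:**
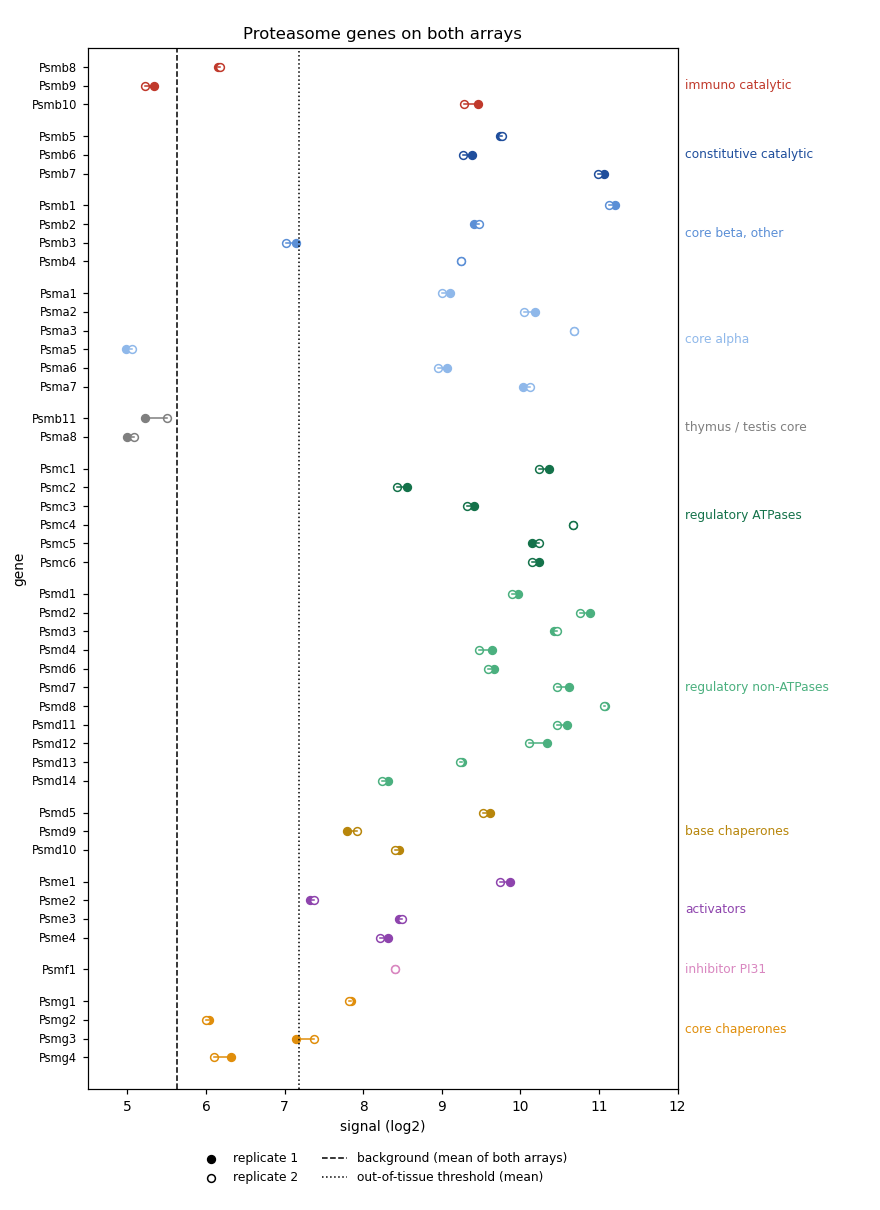
Log2 signal (horizontal axis) of each of the 47 proteasome genes (rows, grouped by role) on replicate 1 (filled) and replicate 2 (open), with the mean background threshold (dashed, 5.63) and the mean out-of-tissue threshold (dotted, 7.19). Psma5, Psmb9, Psmb11 and Psma8 lie left of the dashed line, and all 17 regulatory particle genes lie right of the dotted one.

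The proteolytic subunits were examined as pairs, since each constitutive subunit has an interferon-inducible counterpart. The stretches of 120 bases before the annotated start of 5 of these genes and of the thymus gene Psmb11 are printed here to show the starts of the paired genes. Psmb7, the partner of Psmb10, is not among them, so no beta2 pair can be compared. Sequences are from RefSeq, build GRCm38.p6, written 5′ to 3′ on the strand of the gene. Capitals mark matches to the core of the antioxidant response element, TGACNNNGC on either strand, an element bound by the proteasome regulator encoded by Nfe2l1.
Psmb8, chr17:34198075-34198194, plus strand: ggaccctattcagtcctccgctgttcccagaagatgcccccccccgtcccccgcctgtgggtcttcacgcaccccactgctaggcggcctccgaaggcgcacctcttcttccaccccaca
Psmb9, chr17:34187331-34187450, minus strand: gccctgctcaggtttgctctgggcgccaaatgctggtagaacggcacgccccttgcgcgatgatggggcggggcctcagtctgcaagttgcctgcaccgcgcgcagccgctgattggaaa
Psmb10, chr8:105938393-105938512, minus strand: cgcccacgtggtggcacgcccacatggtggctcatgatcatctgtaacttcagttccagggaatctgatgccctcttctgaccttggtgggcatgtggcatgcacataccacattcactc
Psmb5, chr14:54617996-54618115, minus strand: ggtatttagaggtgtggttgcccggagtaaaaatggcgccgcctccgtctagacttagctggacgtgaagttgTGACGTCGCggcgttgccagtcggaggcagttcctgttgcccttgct
Psmb6, chr11:70525237-70525356, plus strand: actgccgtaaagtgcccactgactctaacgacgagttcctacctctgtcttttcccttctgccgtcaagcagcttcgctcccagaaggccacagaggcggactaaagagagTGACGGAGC
Psmb11, chr14:54625190-54625309, plus strand: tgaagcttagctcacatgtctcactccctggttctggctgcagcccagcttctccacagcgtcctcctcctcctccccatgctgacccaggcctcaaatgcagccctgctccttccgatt
The element core stands in the stretches of Psmb5 (TGACGTCGC) and Psmb6 (TGACGGAGC) and in none of the other 4. The core of the interferon-stimulated element, a pair of TTTC runs spaced by 2 bases on either strand, is in none of the 6 stretches.

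At the beta1 site, the immunoproteasome gene Psmb9 was not above background, at 5.34 on replicate 1 and 5.22 on replicate 2. Its constitutive partner Psmb6, whose product cuts after acidic residues, stood at 9.38 and 9.27. The 2 genes thus fell on different sides of the threshold on both arrays.

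At the beta5 site, which cuts after hydrophobic residues, the immunoproteasome gene Psmb8 gave 6.15 and 6.18. This is above background by 0.54 log2 units on average, and under both the stricter receptor threshold and the out-of-tissue threshold. The constitutive Psmb5 stood at 9.74 and 9.77 and passed every threshold tried. Psmb11, the form of this site known from the thymic cortex, was not above background at 5.23 and 5.51. Psmb5 and Psmb11 are direct neighbours on chromosome 14 in the RefSeq gene table, and only Psmb5 was called.

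At the beta2 site both forms passed every threshold tried. The immunoproteasome gene Psmb10 stood at 9.46 and 9.28, a mean of 9.37 ± 0.13 (SD, n = 2 technical arrays). Its constitutive partner Psmb7, whose product cuts after basic residues, stood at 11.07 and 10.99. Psmb10 exceeded background by 3.74 log2 units on average. The 3 immunoproteasome genes therefore lay apart: Psmb10 was called throughout, Psmb8 at the lower thresholds alone and Psmb9 at none. Each of these genes is read by a single probe set, so no second probe set was at hand to set beside it.

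**Figure D2:**
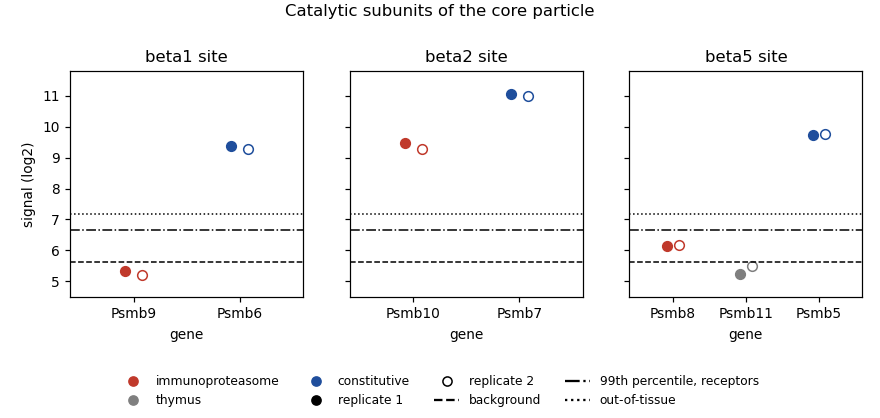
Log2 signal (vertical axis) of the catalytic subunit genes at each proteolytic site, immunoproteasome genes (red), the thymus gene Psmb11 (grey) and constitutive genes (blue), on replicate 1 (filled) and replicate 2 (open). Lines give the mean background threshold (dashed, 5.63), the stricter receptor threshold (dash-dotted, 6.65) and the out-of-tissue threshold (dotted, 7.19). Psmb10 lies above all lines, Psmb8 between the lower ones and Psmb9 and Psmb11 below all.

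Genes of the interferon response and of class I antigen presentation, which are known to be induced together with the immunoproteasome, gave signal mostly close to the threshold. Over all named genes the shares at background, the stricter receptor threshold and the out-of-tissue threshold were 60.6%, 44.8% and 38.0%. Of 11 measured genes, 10 were above background, but 4 passed the stricter receptor threshold and 2 the out-of-tissue one. Those 2 were B2m, the light chain of class I molecules, at 10.93 and 11.15, and Tapbp, which loads peptides on them, at 7.37 and 7.48. The transcription factor Irf1 gave 6.13 and 5.96 and the class I activator Nlrc5 was at 5.72 on both arrays. Psmb9, Tap1, Psmb8 and Tap2 lie in a row on chromosome 17 in the RefSeq gene table, where Tap1 and Tap2 encode the peptide transporter. Of these 4 neighbours Tap1 (6.23 and 6.30) and Psmb8 were called, while Psmb9 and Tap2 (5.11 and 5.31) were not.

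Markers of cells that are known for immunoproteasome expression were placed beside these values. All 9 microglia markers were above background, ranging from 5.85 for Aif1 to 7.84 for Cx3cr1, and 3 passed the out-of-tissue threshold. Over all named genes, 60.6% were above background and 38.0% passed the out-of-tissue threshold. Of 10 vessel markers 9 were above background, from 6.02 to 8.04, with Ly6c1 at 4.37 as the exception. Of 7 measured lymphocyte markers 1 was called, Cd4 at 6.16, and the pan-leukocyte gene Ptprc was at 4.26 and 3.98. The part of these cells in the signals of Psmb8 and Psmb10 was not tested.

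Of the remaining core subunits, those of the standard particle were above background except Psma5. The outer ring gates the entry of substrates. Its subunit gene Psma1 stood at 9.11 and 9.0. Psma2 gave 10.18 and 10.05. Psma3 was at 10.68 on both arrays, and the arrays lay at most 0.13 log2 units apart for these 3 genes. Psma6 gave 9.07 and 8.95. Psma7 gave 10.03 and 10.12. These 5 genes of the ring passed every threshold tried.

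Psma5 encodes an obligatory subunit of the same ring, yet 1 of its probe sets gave 4.97 and 4.83 and the other 5.00 and 5.30, each under background on both arrays. The RefSeq gene table lists a pseudogene of Psma5, and which bases its probe sets cover was not examined. Psma8, an alternative to Psma7 known from testis, was at 5.00 and 5.08 and likewise not above background.

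In the inner ring, the subunits without a proteolytic site were all called. Psmb1 stood at 11.20 and 11.13. Psmb2 gave 9.41 and 9.47. Psmb4 was at 9.25 on both arrays, and these 3 genes passed every threshold. Psmb3 was above background but under the out-of-tissue threshold, at 7.15 and 7.02. Counting the outer ring and the constitutive beta subunits together, 12 of 13 measured core genes were called, and their median was 9.44.

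All measured genes of the regulatory particle that carry a proteasome symbol were called, while its ubiquitin receptor Adrm1 was not analysed here. These 17 genes, 6 ATPases and 11 other subunits, exceeded background and also the out-of-tissue threshold, which 38.0% of all named genes passed. Their median was 10.20 and their means ranged from 8.28 to 11.07.

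The ATPases thread the substrate into the core. Psmc1 stood at 10.37 and 10.24. Psmc3 gave 9.41 and 9.32, and Psmc4 was at 10.67 on both arrays. The signals of these genes and of Psmc5 and Psmc6 repeated within 0.13 log2 units. Psmc5 gave 10.15 and 10.24. Psmc6 gave 10.24 and 10.15. Psmc2 rested on probe sets that disagreed, 1 at 10.33 and 10.21 and the other at 6.78 and 6.66. Both of its probe sets were above background and the lower one was under the out-of-tissue threshold, so the level of Psmc2, at a mean of 8.50, depends on which is read.

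Psmd1 and Psmd2 encode the large scaffolds of the base of the regulatory particle. Psmd1 stood at 9.97 and 9.89. Psmd2 stood at 10.89 and 10.76. Psmd4, a receptor for ubiquitin chains, gave 9.64 and 9.47, and like the scaffolds it exceeded each threshold on both arrays. Psmd14, the metalloprotease that removes the ubiquitin chain, gave 8.31 and 8.24. Its enzymatically inactive partner in the lid, Psmd7, gave 10.62 and 10.47. The other lid subunits were Psmd3, Psmd6, Psmd8, Psmd11, Psmd12 and Psmd13, whose means ranged from 9.25 for Psmd13 to 11.07 for Psmd8. The largest difference between arrays within the particle was that of Psmd12, at 10.34 on replicate 1 and 10.11 on replicate 2.

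The assembly chaperones of both particles were above background, as were 60.6% of all named genes. The chaperones of the base were all over the out-of-tissue threshold. Psmd5 stood at 9.61 and 9.52. Psmd9 gave 7.79 and 7.92. Psmd10, also known as gankyrin, gave 8.45 and 8.41. The chaperones of the core particle, which help to build the alpha ring, were called by their means. Of these, Psmg1 stood at 7.84 and 7.82, over the out-of-tissue threshold on both arrays.

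Psmg3 gave 7.15 and 7.37. Psmg4 gave 6.32 and 6.10. Both differed by 0.22 log2 units between arrays, in opposite directions. Psmg2 averaged a probe set at 3.56 and 3.61 and another at 8.51 and 8.40, on opposite sides of the threshold, so that its mean of 6.02 describes neither. Its higher probe set is over the out-of-tissue threshold. Pomp, the maturation factor of the core, stood at 10.46 and 10.53.

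The alternative caps of the core particle were above background as well. Psme1 and Psme2 encode the alpha and beta chains of the interferon-inducible activator ring and are separated by 1 protein-coding gene on chromosome 14 in the RefSeq gene table. Psme1 stood at 9.87 and 9.74. Psme2 stood at 7.33 and 7.38, so both chains were called. Psme3, the nuclear member of this activator family, gave 8.45 and 8.50. Psme4, an activator linked to histone breakdown, gave 8.32 and 8.21. All 4 passed the out-of-tissue threshold, which 38.0% of all named genes passed. Psme2 did so by the least margin, at 7.33 against 7.28 on replicate 1. Psmf1, which encodes the proteasome inhibitor protein, was at 8.41 on both arrays.

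Genes that work with the proteasome under other names were called throughout. All 10 measured partners were above background and the out-of-tissue threshold, which 38.0% of all named genes passed. The median of the partners was 10.12. The small lid subunit Sem1 was at 10.13 on both arrays. The deubiquitinase Usp14 gave 10.19 and 10.04, and the ubiquitin ligase Ube3a gave 8.88 and 8.94. The shuttle factors and the segregase that deliver ubiquitinated proteins were likewise called in 7 of 7 cases, with a median of 10.37. Their means ranged from 9.26 for Vcp, the segregase, to 11.45 for Ubqln1, a shuttle. Of the ubiquitin genes and activating enzymes written down, Uba6, an activating enzyme, was measured by a probe set of its own, at 9.26 and 9.03.

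Regulators of proteasome genes were above background in 8 of 8 cases, 6 also at the out-of-tissue threshold, which 38.0% of all named genes passed. Nfe2l1, the factor known to raise proteasome genes when proteasome activity is low, stood at 9.28 and 9.27, and Ngly1, the glycanase needed to activate it, at 8.33 and 8.24. Stat3 stood at 9.51 and 9.40. Nfe2l2, a relative of Nfe2l1 known from the antioxidant response, was at 6.35 and 6.38 and Foxo4 at 6.56 and 6.42, both above background and under the stricter receptor threshold. The CCAAT-binding subunits Nfya, Nfyb and Nfyc were at 8.30, 7.99 and 8.94 on average.

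**Figure D3:**
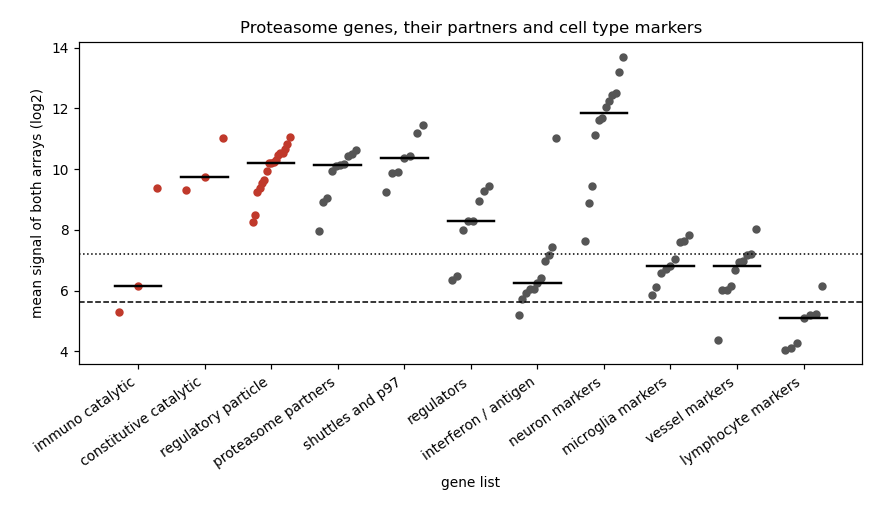
Mean log2 signal of both arrays (vertical axis) for the genes (points) of 3 groups of proteasome genes (red) and 8 lists of partner, regulator and cell type marker genes (grey), with the median of each list (bar), the mean background threshold (dashed, 5.63) and the mean out-of-tissue threshold (dotted, 7.19). The immunoproteasome genes spread from 5.28 to 9.37, and the regulatory particle genes lie between 8.28 and 11.07.

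Promoters were then examined for features not used to choose the genes. The RefSeq table holds 42 start sites for 39 of the 47 genes. The core of the antioxidant response element was found within 250 bases before to 50 bases after the start in 6 of the 42 windows (14.3%), against 12.4% of all 32851 windows. The 6 genes were Psmb5, Psmb6, Psmc6, Psmd9, Psmd12 and Psme4. All 6 were above background, as were the genes of 39 of the 42 windows. The core of the interferon-stimulated element was found in 5 windows (11.9%), those of Psmb3, Psmd4, Psmd9, Psme1 and Psmg4, against 3.44% of all windows. In the 250 bases before the start alone it was found in 3 windows (7.14%), against 2.98% of all windows. None of the 3 immunoproteasome genes was among them. Such matches are letters in a window and not shown to be sites.

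The windows of most proteasome genes were rich in CpG, the dinucleotide that marks island promoters. In the 250 bases before the start the median was 14.0 CpG, against 6.0 over all windows and 15.0 over those of named genes above background. Of the 42 windows 32 (76.2%) held 10 or more, against 37.8% of all windows. Among genes above background, the share was 76.9% for the 39 proteasome windows and 68.0% for those of named genes. Psmb10 held 3 and Psmb11 held 4, while Psmb8 and Psmb9 held 10 and 12. The uncalled Psma5 held 19.

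How the repeatability of the proteasome genes compared with that of other genes depended on the measure. Over the 43 genes above background the SD of the difference between arrays was 0.10 log2 units, against 0.15 over all 13445 named genes above background. Repeatability depends on the level, so the genes with a mean over 9 were also compared. Their SD was 0.08 for 29 proteasome genes, against 0.11 for 3792 named genes. The SD does not count a shift common to a set of genes. The median absolute difference, which does, was 0.09 for both sets above background. Over a mean of 9 it was 0.09 for proteasome genes and 0.07 for named genes. No proteasome gene differed by more than 0.5 log2 units, which 0.521% of the named genes above background did. At so small a share, 43 genes are too few for this count to tell the sets apart. Of the 43 genes, 18 differed by more than 0.1 log2 units, a share near the 44.4% of the named genes above background. Over a mean of 9, 12 of 29 proteasome genes and 1235 of 3792 named genes did.

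Most of these small differences ran one way. Of the 43 genes above background, 29 were higher on replicate 1, 10 on replicate 2 and 4 equal, while 53.6% of all named genes above background were higher on replicate 1. The median difference, replicate 2 minus replicate 1, was -0.07 for the proteasome genes and -0.02 for the named genes above background. Direction varies with the level too. Among genes with a mean over 9, 21 of 29 proteasome genes and 2252 of 3792 named genes were higher on replicate 1. The median differences of these genes were -0.09 and -0.03. In the regulatory particle, 10 of the 11 non-ATPase subunits were higher on replicate 1, Psmd3 being the exception at 10.43 and 10.47. The arrays are technical replicates with no condition between them.

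**Figure D4:**
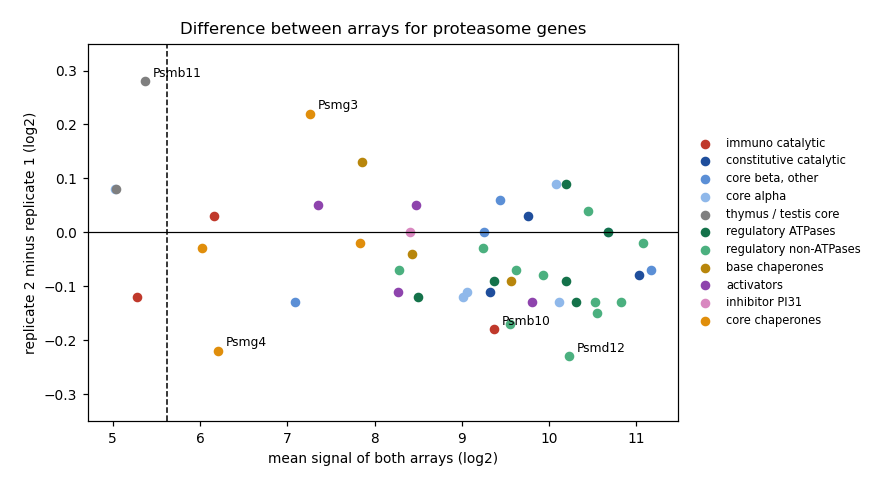
Difference between arrays (replicate 2 minus replicate 1, log2, vertical axis) against the mean signal (log2, horizontal axis) for the 47 proteasome genes, coloured by role, with the mean background threshold (dashed, 5.63). All differences lie between -0.23 (Psmd12) and 0.28 (Psmb11), and points of genes with nearly equal values cover each other, such as Psma5 and Psma8 at 0.08.

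Other large complexes were placed beside the proteasome. Above background were 43 of 47 proteasome genes, 71 of 71 genes of mitochondrial ribosomal proteins and 53 of 60 genes of cytosolic ribosomal proteins. At the out-of-tissue threshold the counts were 38, 62 and 32, and 38.0% of all named genes were called. The medians were 9.37, 8.36 and 7.38. Affinity varies from probe set to probe set, so these medians do not rank the complexes. With no biological replicates the differences were not tested. The lists were taken by symbol alone, and the many processed pseudogenes of cytosolic ribosomal proteins can share their probes.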

How the data were processed

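Ribosome-bound RNA of pooled cortices, labelled with biotin by the Affymetrix WT Plus kit per the labels' protocols, was measured on 2 arrays. The authors deposited 1 log2 value per probe set and array. The log base was inferred from the range. For background correction, summarisation and normalization, the step is not given in the sources used here. Precision is limited by the number of arrays.

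Of 34472 probe sets, 23521 named 1 gene in the platform annotation, 1814 named several (left out), and 9137 have no name here. Probe sets of a gene were averaged (pandas 2.3.3, Python 3.11.15). No test was run. Values ± SD are over technical arrays. The reliability of calls close to background was not tested. Psmg2, Psmb8 and Psmg4 lay 0.39, 0.54 and 0.58 log2 units above background on average. On the other side, Psmb11 and Psmb9 lay at -0.26 and -0.35 from it. Members and lists were chosen with earlier results of these data known. All members may be named. Of other lists, the first 4 measured genes, genes on the other side of the threshold, and all partners, regulators and interferon genes may be. The ribosomal families, neighbouring genes, CpG counts and genes named beyond the rule (Ptprc and Vcp) were chosen after values were seen. The planned comparison of protein sequences was not made. There were 0 unused sample columns.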

Additional observations from a re-analysis of the deposited data

How the results depend on the processing

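The count of 43 proteasome genes above background was 43 with the median of all probe sets as threshold, with the highest probe set of a gene, after quantile normalization and with either array alone. It was 41 of 44 genes with a single probe set, 40 at the stricter receptor threshold, where Psmb8, Psmg2 and Psmg4 lost their calls, and 38 at the out-of-tissue threshold. All named genes called fell to 44.8% and 38.0% under the last 2 thresholds. The count of immunoproteasome genes, 2 with the main threshold, was 1 at the stricter receptor threshold and 1 at the out-of-tissue threshold, since both lie above Psmb8. The partner, regulator and marker lists together had 85 genes above background, and 55 at the out-of-tissue threshold. The calls fell from 10 to 2 of 11 interferon genes, from 9 to 1 of 10 vessel markers and from 9 to 3 of 9 microglia markers. They fell from 10 to 7 of 10 astrocyte markers, from 8 to 6 of 8 oligodendrocyte markers and from 8 to 6 of 8 regulators. The 1 lymphocyte call was lost. All partners, shuttles and neuron markers and Uba6 kept their calls. Windows with the interferon-stimulated element core numbered 5, and 3 (7.14%, against 2.98% of all windows) in the 250 bases before the start alone. With either array alone the median of the proteasome genes was 9.28 to 9.41, the immunoproteasome count 2 and the lists' count 85. No paired analysis was possible because the samples form 1 group. Signal near background limits the calls of Psmb8 and Psmg4, and disagreeing probe sets that of Psmg2.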
